A study of Mus musculus with 20 samples.

Results

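Polysome RNA and input RNA from the livers of 5 male C57BL/6J mice given a GFP LNA were compared, mouse by mouse. An LNA is a short antisense oligonucleotide with locked nucleic acids, and the GFP LNA is directed at a jellyfish gene that mice lack, so these animals were the controls of a study of the small nucleolar RNA SNORA73. The 10 libraries were the 5 input and 5 polysome libraries of mice 1, 2, 3, 8 and 9, out of 20 libraries from 10 mice. The other 10 libraries came from mice given an LNA against SNORA73, whose labels write the target as Snora37. All mice of both groups were on chow, and the design text gives 3 intraperitoneal injections of 3 mg/kg, 1 every other day, from 8 weeks of age, with tissue taken 2 days after the last injection. The methods for liver polysomes state an older age, and which applies was not resolved. Of 53028 genes in the table, 13283 had a CPM (counts per 1000000 counts of a library) above 0.5 in at least 4 of the 10 libraries, and these genes were tested.

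An mRNA in translation carries several ribosomes, and such polysomes sediment further in a sucrose gradient than single ribosomes, ribosomal subunits and free RNA. Mice received cycloheximide, which stops elongating ribosomes on the mRNA, shortly before death. Input RNA came from the same lysate of tissue with all its cell types, made with the detergent NP-40. How much nuclear RNA this lysis released was not measured. Polyadenylated RNA of both input and polysomes was sequenced. A polysome to input ratio, called the ratio from here on and given as log2, therefore compares the share of a gene in polysome mRNA with its share in input mRNA. It is relative to the average mRNA after TMM scaling, and a value of 0 is not equal to full or to absent loading. No value gives the percentage of a mRNA on polysomes, since neither spike-in nor gradient profile entered the ratio. Input RNA was purified on a column with DNase digestion, and polysome RNA by precipitation, heparinase treatment and a further cleanup. This difference is present in every mouse, so its part in a ratio cannot be told apart from loading.

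Input libraries held between 24098171 and 42023572 counts, and polysome libraries between 17752037 and 33824824. Genes encoded by mitochondrial DNA took 11.2% to 15.4% of the counts in input RNA and 2.06% to 3.05% in polysome RNA. The first principal component of log2 CPM carried 47.1% of the variance and separated both RNAs. The second carried 15.6%, and along it both libraries of mouse 9 lay at one end. Hepatocyte markers were abundant in all 10 libraries, with a summed CPM of the 6 markers of 34500 to 61600 in input RNA and 42600 to 69200 in polysome RNA. Albumin (Alb) alone had 20337 to 44094 CPM in input RNA.

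A gene was called higher or lower in polysome RNA at an FDR under 0.05 in edgeR's quasi-likelihood test with the mouse as a block and a ratio of at least 0.5 in size. By this rule 2482 genes (18.7% of those tested) were higher, 2838 (21.4%) were lower and 7963 were not called. A ratio of 1 or more was reached by 528 of the higher genes, and 1159 of the lower genes had -1 or less. At FDR alone, 8363 genes differed. Input and polysome libraries did not overlap for 35.9% of the genes tested. The median ratio of all genes was 0.02.

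**Figure D1:**
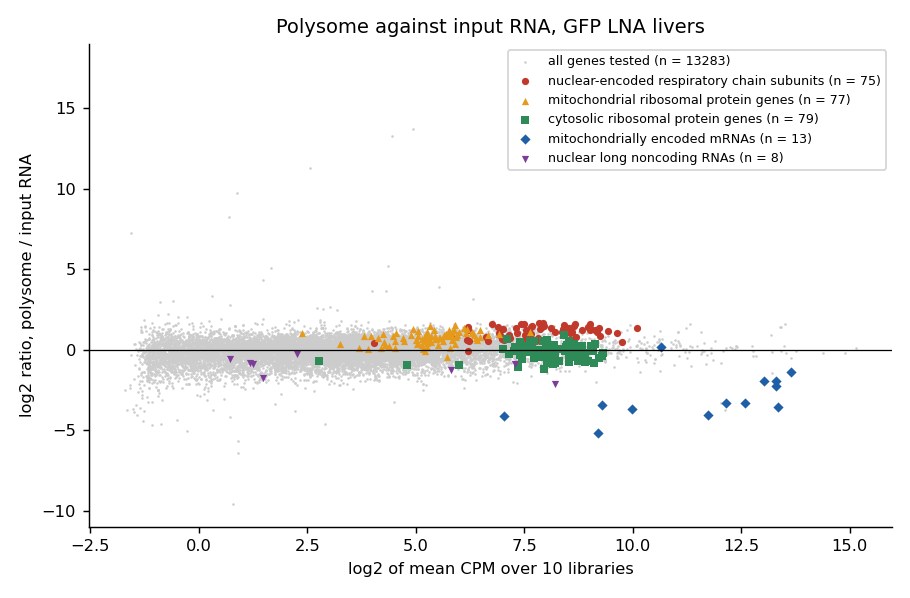
Log2 ratio of polysome to input RNA (vertical axis) against log2 of the mean CPM over 10 libraries (horizontal axis), 1 point per gene tested (n = 13283), with genes of 5 lists marked. Nuclear-encoded respiratory chain subunits sit mostly between 0.5 and 1.68, while all but 1 of the 13 mitochondrially encoded mRNAs sit below -1.

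mRNAs for subunits of the respiratory chain made in the cytosol had the highest median of the lists examined. Of 76 subunits written in the list, 75 were tested, 65 were higher and 0 were lower (background 18.7% and 21.4%), and the median ratio was 1.07, against 0.02 for all genes. The median over the list was between 0.96 and 1.22 in each of the 5 mice. By complex, 35 of 36 subunits of complex I (NADH dehydrogenase), 1 of 4 of complex II (succinate dehydrogenase), 8 of 10 of complex III with cytochrome c, 11 of 11 of complex IV (cytochrome c oxidase) and 10 of 14 of complex V (ATP synthase) were higher. Ndufa1 (ENSMUSG00000016427, GRCm38.p6 chrX:37187588-37191238), an accessory subunit of complex I, had 118, 111, 106, 104 and 108 CPM in the input RNA of mice 1, 2, 3, 8 and 9 and 379, 339.7, 317, 314 and 404 CPM in their polysome RNA. Each polysome library was above every input library, and the ratio was 1.68 (SE 0.067, FDR 5.71e-09).

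Other small accessory subunits lay close to it. The ratio was 1.59 (SE 0.085) for Ndufa2, 1.67 (SE 0.067) for Ndufa3 and 1.61 (SE 0.077) for Ndufv3. Among genes with a mean of at least 500 CPM, Uqcrq of complex III, Cox7b and Cox6b1 of complex IV and Ndufa4 were among the 10 with the highest ratios, at 1.59, 1.38, 1.37 and 1.36. Atp5e, the epsilon subunit of ATP synthase, had 142 to 239 CPM in input RNA and 535 to 666 CPM in polysome RNA, a ratio of 1.62. The lowest value of the list was that of Sdha, the flavoprotein of complex II, at -0.31 (SE 0.062, FDR 0.00101), which fell short of the size for a call. Ndufs1, which carries iron-sulfur clusters and was the 1 complex I subunit not called, had 68.9 to 83.7 CPM in input and 63.6 to 79.2 CPM in polysome RNA with a ratio of -0.089 (SE 0.059, FDR 0.205). In complex II the iron-sulfur subunit Sdhb was higher at 0.64, while the membrane anchors Sdhc and Sdhd had 0.21 and -0.031.

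**Figure D2:**
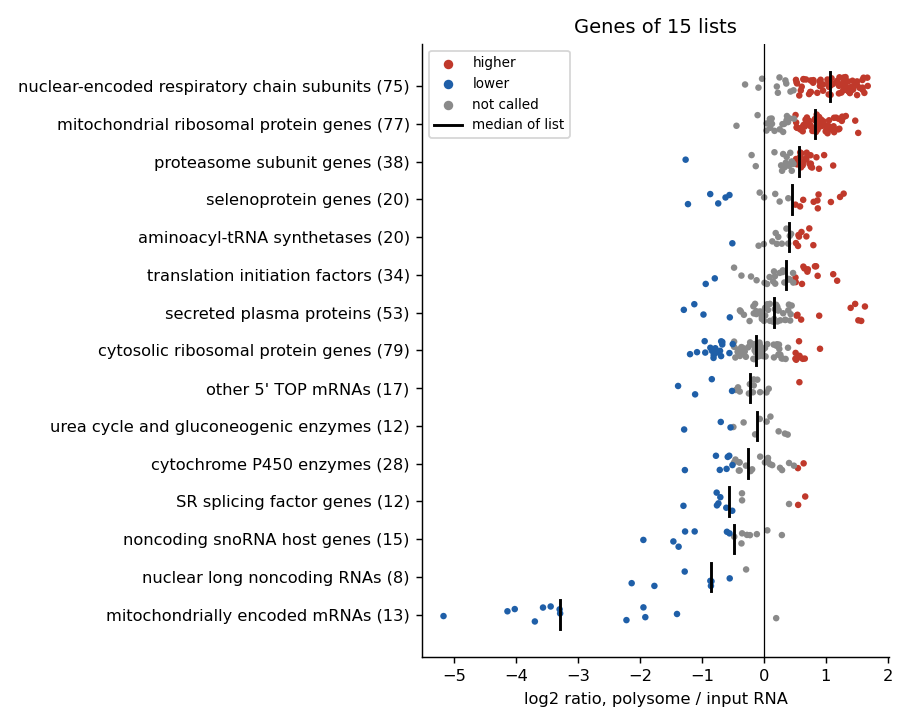
Log2 ratio of polysome to input RNA (horizontal axis) for the genes of 15 lists (rows, with the number tested), 1 point per gene, coloured by call, with the list's median as a black bar. Lists of mitochondrial proteins made in the cytosol lie to the right of 0, and mitochondrially encoded mRNAs and nuclear long noncoding RNAs lie to the left.

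Proteins of the mitochondrial ribosome, which are likewise made in the cytosol and imported, had a median of 0.82. Of 77 tested, 58 were higher (75.3%, against 18.7% of all genes) and 0 lower (against 21.4%). Mrpl52 had the highest ratio, 1.52 (SE 0.092, FDR 5.62e-08), and Mrpl50 the lowest, -0.44 (SE 0.078), which was not called. The first members of the list were Mrpl1 at 0.043, Mrpl10 at 0.33 and Mrpl11 at 0.87, of which Mrpl11 was called. Timm13, a small chaperone of the space between the mitochondrial membranes, had 32.1 to 46.98 CPM in input and 122 to 144 CPM in polysome RNA and a ratio of 1.65. In the proteasome, the complex that degrades ubiquitinated proteins, 21 of 38 subunits were higher (55.3%) and 1 lower (2.63%), with a median ratio of 0.56. The ATPase subunit Psmc1 was the highest at 1.12 (SE 0.069, FDR 6.17e-08), and Psma1, Psma2 and Psma3 had 0.35, 0.58 and 0.37. The lower subunit was Psma8, the form of the testis, which had at most 1.73 CPM in these livers, at -1.27.

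RNA encoded by mitochondrial DNA is translated by mitochondrial ribosomes inside the organelle. Of 13 such mRNAs 12 were lower in polysome RNA (92.3%, against 21.4% of all genes). Their median ratio was -3.30, and their summed CPM was 101000 to 145000 in input RNA and 18200 to 28800 in polysome RNA. mt-Nd1, a core subunit of complex I, had 6626, 7802, 6791, 11348 and 8738 CPM in the input RNA of mice 1, 2, 3, 8 and 9 and 1073, 666, 789.8, 659.9 and 1028 CPM in polysome RNA. Every polysome library was below every input library, and the ratio was -3.29 (SE 0.17, FDR 1.91e-08). The values for the list ran from -5.18 for mt-Atp8, followed by mt-Nd4l at -4.14 and mt-Nd2 at -4.03, to -1.40 for mt-Co1. Between them were mt-Nd3 at -3.70, mt-Atp6 at -3.57, mt-Nd5 at -3.45, mt-Nd4 at -3.30, mt-Co3 at -2.22, mt-Cytb at -1.95 and mt-Co2 at -1.92. The mitochondrial rRNAs mt-Rnr1 and mt-Rnr2 had -3.72 and -3.32. The exception was mt-Nd6, the mRNA from the opposite strand of mitochondrial DNA, with 1259 to 1857 CPM in input and 1293 to 2265 CPM in polysome RNA and a ratio of 0.20 (SE 0.093, FDR 0.0819). Whether strand was used when reads were assigned is not given in the sources used here, so reads of mt-Nd6 and of its antisense neighbours cannot be told apart.

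**Figure D3:**
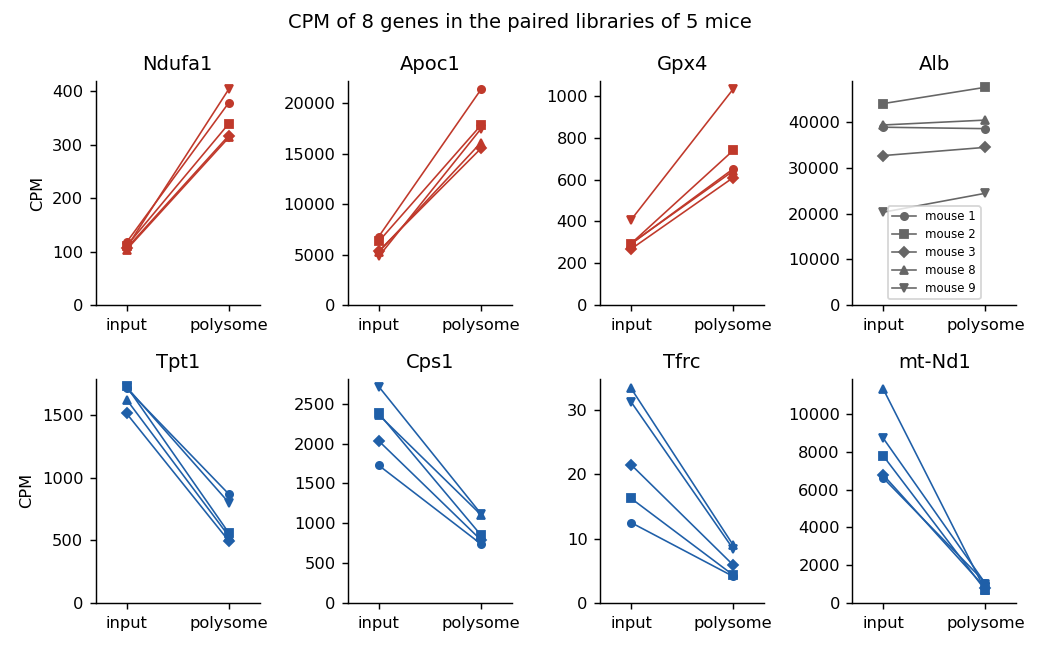
CPM (vertical axes, each from 0) of 8 genes in input and polysome RNA of mice 1, 2, 3, 8 and 9, with the libraries of a mouse joined by a line and genes coloured by call (red higher, blue lower, grey not called). Ndufa1, Apoc1 and Gpx4 go up in 5 of 5 mice and Tpt1, Cps1, Tfrc and mt-Nd1 go down in 5 of 5, while Alb stays close to its input level in each mouse.

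Long noncoding RNAs that stay in the nucleus were also lower. Of 13 written in the list 8 were tested, and their median was -0.86. Of these 8, 7 were lower (87.5%, against 21.4% of all genes) and 0 higher (against 18.7%). Malat1 (ENSMUSG00000092341, GRCm38.p6 chr19:5795690-5802672), a RNA of nuclear speckles, had 417, 445, 430.4, 516 and 585 CPM in input RNA and 121, 92.5, 93.9, 92.5 and 150.4 CPM in polysome RNA of mice 1, 2, 3, 8 and 9. Input and polysome libraries did not overlap, and the ratio was -2.14 (SE 0.092, FDR 9.29e-09). Neat1, the scaffold of paraspeckles, had -1.28 (SE 0.079), and Ftx, from the X-inactivation centre, -1.77 (SE 0.14). Tug1, Kcnq1ot1, Jpx and Pvt1 lay between -0.87 and -0.55. The call of Pvt1 was lost without mouse 2 (-0.42), 8 (-0.61) or 9 (-0.47). Firre had -0.29 (SE 0.16, FDR 0.136) and was not called.

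Noncoding host genes of snoRNAs carry the snoRNAs in their introns, and their spliced exons have no known long open reading frame. Their median ratio was -0.48, with 7 of 15 tested genes lower (46.7%, against 21.4% of all genes) and 0 higher (against 18.7%). Gas5 had 83.6 to 117 CPM in input and 30.3 to 50.9 CPM in polysome RNA, a ratio of -1.38 (SE 0.10, FDR 2.9e-07). Snhg14 was the lowest at -1.95 (SE 0.33) and Snhg20 the highest at 0.29 (SE 0.29), which was not called. Both lay near the filter, with a mean of 1.17 CPM for Snhg14 and 0.946 CPM for Snhg20 over the 10 libraries. Snhg3, the host gene of SNORA73, had 4.16 to 5.49 CPM in input and 2.80 to 4.44 CPM in polysome RNA with a ratio of -0.36 (SE 0.15, FDR 0.0566), and Snhg1 had -0.35 (SE 0.098, FDR 0.00716). Neither was called. A further list held 3 protein-coding mRNAs known to be kept in hepatocyte nuclei. Of these Mlxipl, which encodes the glucose-sensing factor ChREBP, had 0.085 (SE 0.069, FDR 0.301), Nlrp6 had 0.49 (SE 0.082) and the glucagon receptor Gcgr was higher at 0.77 (SE 0.082, FDR 5.68e-06).

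Secreted plasma proteins are the main export of hepatocytes. Of 53 genes 9 were higher (17.0%, against 18.7% of all genes), 4 were lower (7.55%, against 21.4%) and 40 were not called, with a median of 0.17. Alb had 38928, 44094, 32725, 39419 and 20337 CPM in input RNA and 38615, 47663, 34525, 40488 and 24484 CPM in polysome RNA of mice 1, 2, 3, 8 and 9, a ratio of 0.097 (SE 0.056, FDR 0.148). Its share was thus close in both RNAs of each mouse, although mouse 9 had the lowest level in both. Small apolipoproteins were the furthest from it. Apoc1 (ENSMUSG00000040564, GRCm38.p6 chr7:19689480-19692659), carried on lipoprotein particles, had 6795, 6311, 5362, 5258 and 4819 CPM in input RNA and 21349, 17815, 15514, 16091 and 17461 CPM in polysome RNA. The libraries did not overlap, and the ratio was 1.63 (SE 0.064, FDR 5.49e-09).

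Apoc3, an inhibitor of lipoprotein lipase, Apoc4 and Apoa2, a protein of high-density lipoprotein, had ratios of 1.57 (SE 0.083), 1.52 (SE 0.074) and 1.40 (SE 0.074). Transthyretin (Ttr), the carrier of thyroid hormone, had 0.89 (SE 0.072). In contrast, Apoa1, the main protein of high-density lipoprotein, had -0.071 (SE 0.075, FDR 0.426). The lower genes included F9 (coagulation factor IX) at -1.13 (SE 0.067), Apob, the very large protein of low-density lipoprotein, at -0.98 (SE 0.058) and Igfbp1 at -0.55 (SE 0.061). For Apob the 5 mice had 2464 to 2888 CPM in input and 1167 to 1481 CPM in polysome RNA. Fabp1, the fatty acid-binding protein of the hepatocyte cytosol, and Ttc36 were also among the 10 highest ratios at a mean of 500 CPM or more, with 1.39 (SE 0.067) and 1.36 (SE 0.068).

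Predicted genes (symbols of Gm with a number, or ending in Rik), pseudogenes and genes with no symbol were left out of this ranking, and some of them had higher ratios. Among the other genes with a mean of at least 5 CPM, the highest ratios were those of Smim22, which encodes a small membrane protein, at 1.86 (SE 0.14), Tff3 at 1.81 (SE 0.14), Hamp2 at 1.76 (SE 0.090) and Scand1 at 1.71 (SE 0.078). The trefoil factor Tff3 rested on uneven levels, with 0.576, 0.425, 2.58, 1.13 and 22.2 CPM in input and 0.995, 2.17, 8.28, 5.27 and 78.8 CPM in polysome RNA of mice 1, 2, 3, 8 and 9, so mouse 9 held most of its counts in both RNAs. Its ratio was positive in 5 of 5 mice. On the other side, Ugt1a10 was the lowest nuclear gene with a mean of at least 5 CPM at -4.64 (SE 0.84). It had 15.7, 27.9, 2.94, 16.98 and 4.65 CPM in input RNA, but it was at 0 in polysome RNA in 4 mice and at 6.69 CPM in mouse 8. Ugt1a genes share their last exons, so their counts are uncertain.

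In 4 lists of liver metabolism, the share of genes called lower was between 9.09% and 29.2%, against 21.4% of all genes, and the share called higher between 0% and 16.7%, against 18.7%. Of 12 urea cycle and gluconeogenic genes 3 were lower and 0 higher, with a median of -0.10. Cps1 (carbamoyl phosphate synthetase), a large mitochondrial enzyme and the first step of the urea cycle, had 1727, 2379, 2034, 2362 and 2716 CPM in input RNA and 739, 850.4, 789, 1106 and 1119 CPM in polysome RNA. It was lower in each mouse without overlap, with -1.29 (SE 0.067, FDR 2.03e-08). The others that were lower were G6pc, the last enzyme of glucose release, at -0.70 (SE 0.068) and Otc at -0.54 (SE 0.062). The next enzymes of the urea cycle, Ass1 and Asl, had 0.24 and 0.38, Arg1 had -0.33 and the gluconeogenic Pck1 had -0.49 (SE 0.059). None of these 4 was called.

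Of 28 cytochrome P450 genes 2 were higher and 7 lower (median ratio -0.25). Cyp7a1, the rate-limiting enzyme of bile acid synthesis, had 8.99, 27.02, 27.5, 53.5 and 30.1 CPM in input and 3.98, 13.2, 12.6, 20.1 and 9.69 CPM in polysome RNA of mice 1, 2, 3, 8 and 9. Its level differed several-fold between mice, so the groups overlapped, but the ratio was negative in each mouse at -1.28 (SE 0.088, FDR 1.44e-07). Cyp2d26 and Cyp2d9 were the higher genes, at 0.64 and 0.55, and Cyp1a2, Cyp2a12 and Cyp2c29 had 0.097, -0.41 and 0.062. P450 genes have close paralogs, between which assigned reads are uncertain. In cholesterol synthesis and uptake, 4 of 24 genes were higher and 7 lower (median ratio -0.17). Enzymes of the early steps were split. Hmgcs1 had -1.31 (SE 0.068, FDR 2.03e-08), while Mvk and Pmvk were higher at 0.57 and 0.94. Hsd17b7, of the late steps, had -1.31 (SE 0.066). Of 22 genes of fatty acid oxidation and ketogenesis, 1 was higher (Etfb, 0.57) and 2 were lower, among them Cpt1a (-0.52), with a median of 0.08. Cpt2 had 0.44 and was not called. The size of these changes was close to the threshold, and without mouse 9 the calls of Cyp2d9 (0.47) and Cpt1a (-0.49) were lost, as was that of Etfb without mouse 8 (0.497).

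Cytosolic ribosomal proteins are translated from mRNAs that begin with a tract of pyrimidines, the 5' terminal oligopyrimidine (TOP) motif, through which growth signalling controls their loading. In these livers their ratios spread over both sides of 0. Of 79 genes 9 were higher (11.4%, against 18.7% of all genes), 17 were lower (21.5%, against 21.4%) and 53 were not called, with a median of -0.13. In the small subunit 1 of 32 genes was higher and 8 were lower, and in the large subunit 8 of 47 were higher and 9 lower. Rplp0, of the stalk, was the lowest with 383, 357, 382, 311 and 296 CPM in input and 164, 139.9, 163, 131 and 157 CPM in polysome RNA, a ratio of -1.19 (SE 0.071, FDR 4.67e-08). Rpl38 was the highest with 249, 247, 238, 203 and 238 CPM in input and 493, 383, 375, 396 and 581 CPM in polysome RNA, a ratio of 0.90 (SE 0.090, FDR 3.02e-06). For both genes the libraries did not overlap. Rpsa, Rps2 and Rps3 had -0.69, -0.79 and -0.15, of which Rps3 was not called. Ribosomal protein genes have many pseudogenes, so some of their reads may be assigned elsewhere.

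**Figure D4:**
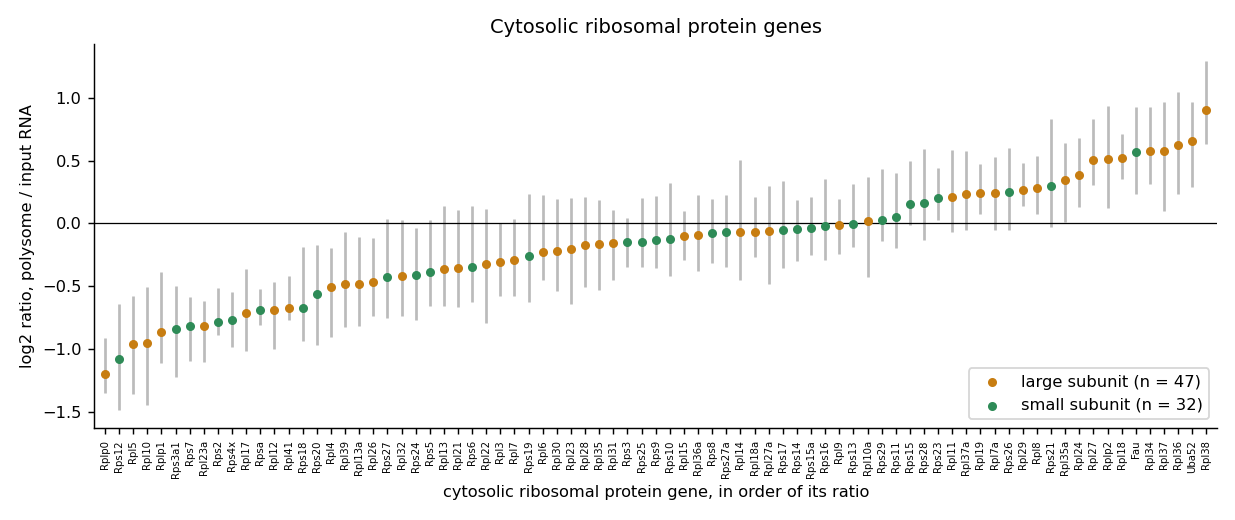
Log2 ratio of polysome to input RNA (vertical axis) of 79 cytosolic ribosomal protein genes in order of their ratio (horizontal axis), with a point for the fitted ratio, coloured by subunit, and a grey line from the lowest to the highest of 5 mice. The order runs from Rplp0 at -1.19 to Rpl38 at 0.90 with genes of both subunits on both sides of 0.

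The ratios of this list differed between mice. The median over the 79 genes was 0.11 in mouse 1, -0.35 in mouse 2, -0.29 in mouse 3, -0.29 in mouse 8 and 0.20 in mouse 9, while the median over all genes tested lay between -0.01 and 0.03. Other mRNAs of the TOP class had a median of -0.23. Of 17 tested, 1 was higher (5.88%, against 18.7% of all genes) and 4 were lower (23.5%, against 21.4%). In mice 1 and 9 their median was -0.08 and -0.05, and in mice 2, 3 and 8 it was between -0.37 and -0.36. Tpt1 (the translationally controlled tumour protein) had 1712, 1727, 1512, 1623 and 1723 CPM in input RNA and 868, 558, 494, 532 and 800.1 CPM in polysome RNA of mice 1, 2, 3, 8 and 9. Mice 1 and 9 had the most in polysome RNA, yet below each input library, and the ratio was -1.39 (SE 0.10, FDR 2.24e-07). Pabpc1, which binds poly(A) tails, had -1.11 (SE 0.099), the elongation factors Eef1a1 and Eef1b2 had -0.84 (SE 0.094) and -0.52 (SE 0.10), and Eef1d was higher at 0.57 (SE 0.068). Eef1b2 was not called without mouse 2 (-0.48), 3 (-0.46) or 8 (-0.44).

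The start regions of 7 genes of these lists are shown, because genes with a pyrimidine tract near the annotated start were called in opposite directions. They were chosen after their values were seen. Each run gives 10 bases before and 20 from the annotated RefSeq start site on GRCm38.p6, 5' to 3' on the gene's strand. The pyrimidine tract (C followed by at least 6 pyrimidines) is in capitals. It begins at the annotated start in Rpl38, after it in Rps12 and Rpl18 and before it in the others. The runs therefore do not show that each mRNA begins with a tract.
Rps12, lower, chr10:23787190-23787219, minus strand: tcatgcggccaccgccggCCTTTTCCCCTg
Eef1a1, lower, chr9:78481705-78481734, minus strand: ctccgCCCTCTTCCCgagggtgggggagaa
Rps18, lower, chr17:33955646-33955675, minus strand: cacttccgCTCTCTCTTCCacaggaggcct
Rpl18, higher, chr7:45718061-45718090, plus strand: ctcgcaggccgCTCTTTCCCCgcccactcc
Fau, higher, chr19:6057937-6057966, plus strand: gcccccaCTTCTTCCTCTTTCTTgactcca
Rpl34, higher, chr3:130730318-130730347, minus strand: CTTTTCCTCTTCCggggacggtgctcagag
Rpl38, higher, chr11:114668570-114668599, plus strand: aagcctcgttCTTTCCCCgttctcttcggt

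The ratio of Rps12 was -1.08 (SE 0.11), that of Rps18 -0.67 (SE 0.10), that of Rpl18 0.52 (SE 0.070), that of Fau 0.57 (SE 0.089) and that of Rpl34 0.57 (SE 0.088). Without mouse 9 the calls of Rpl18 (0.47), Fau (0.47) and Rpl34 (0.48) were lost, and that of Rpl18 was also lost without mouse 8 (0.48). A tract of this kind, between 10 bases before and 25 after the start on the gene's own strand, was present in 29 of the 58 ribosomal protein genes with a promoter entry and in 17.7% of 27025 entries of all genes. The 29 genes with a tract had a median ratio of -0.07, with 5 higher and 2 lower, and the 29 without one had -0.22, with 2 higher and 11 lower. RefSeq starts are annotated and were not measured here, and the start used in liver may differ by some bases.

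Initiation factors bring the ribosome to the start codon. Of 34 such genes 12 were higher (35.3%, against 18.7% of all genes) and 2 lower (5.88%, against 21.4%). Their median ratio was 0.36. Eif1, which guards the choice of the start codon, had 553, 574, 520.1, 488 and 525 CPM in input and 1127, 1169, 1129.7, 1063 and 1287 CPM in polysome RNA, without overlap, and a ratio of 1.12 (SE 0.062, FDR 2.97e-08). Eif2b4, of the exchange factor for eIF2, had 1.18 (SE 0.11), while Eif1ax and Eif2s1 had 0.090 and -0.12. The lower ones were Eif4g2 at -0.94 (SE 0.072) and Eif4a2 at -0.79 (SE 0.076). Of 20 aminoacyl-tRNA synthetases, which charge tRNAs, 8 were higher (40.0%, against 18.7% of all genes) and 1 lower (5.0%, against 21.4%). Their ratios ran from Sars at 0.80 to Dars at -0.51, which was not called without mouse 8 (-0.43). Of 11 cytosolic and mitochondrial chaperones, 3 were higher (27.3%), namely Hspe1 at 0.93, Hsp90ab1 at 0.85 and Hsp90aa1 at 0.66, and 0 were lower. Of 15 chaperones of the endoplasmic reticulum 2 were higher (13.3%) and 1 lower (6.67%). Their median of -0.002 became 0.052 with library totals in place of TMM. Manf and Creld2 had 0.62 and 0.60, Dnajb9 had -1.48 (SE 0.092, FDR 6.95e-08), and the abundant Hspa5 (BiP) had -0.078 (SE 0.065, FDR 0.31).

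Several lists held mRNAs known for regulated translation. Upstream open reading frames hold back the main reading frame of integrated stress response genes. Of 11 such genes 3 were higher (27.3%, against 18.7% of all genes) and 0 lower (against 21.4%), with a median ratio of 0.20. Cebpb, Atf5 and Eprs were higher, at 0.98 (SE 0.064), 0.59 (SE 0.062) and 0.57 (SE 0.070). Atf4, the main effector, had 101, 96.99, 108, 77.2 and 111 CPM in input and 105, 128, 126, 74.2 and 108 CPM in polysome RNA with 0.12 (SE 0.075, FDR 0.185), and the libraries overlapped. Ddit3, Ppp1r15a, Ppp1r15b, Ifrd1, Slc35a4, Ibtk and Cebpa were not called, with values from -0.46 for Ibtk to 0.30 for Cebpa.

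Iron-responsive elements (IRE) in the 5' end bind proteins that block initiation when iron is low. Of 6 mRNAs with such an element 3 were lower (against 21.4% of all genes) and 0 higher (against 18.7%). The list is short, and whether these elements had a part in the ratios was not tested. The ferritin chains Fth1 and Ftl1, which store iron, had -0.85 (SE 0.091) and -0.50 (SE 0.057), of which Ftl1 was not called without mouse 1 (-0.48) or 9 (-0.48), and the iron exporter Slc40a1 had -0.99 (SE 0.067). Epas1 and Alas2 had -0.43 and 0.34 and were not called. The transferrin receptor Tfrc, with IREs in its 3' end, was further down. It had 12.5, 16.3, 21.5, 33.4 and 31.3 CPM in input and 4.12, 4.33, 5.89, 8.995 and 8.39 CPM in polysome RNA of mice 1, 2, 3, 8 and 9, without overlap, at -1.84 (SE 0.072, FDR 5.49e-09). Slc11a2, the other tested gene of that kind, had -0.38 (SE 0.067).

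Among 10 polyamine genes Oaz1, the antizyme whose reading requires a ribosomal frameshift, was higher at 0.98 (SE 0.067), as was spermidine synthase Srm at 0.81 (SE 0.075), and Azin1, the antizyme inhibitor, was lower at -0.74 (SE 0.072). Odc1, Amd1, Oaz2, Sat1, Smox, Paox and Sms were not called, with values between -0.16 for Sms and 0.42 for Paox. Selenoproteins, which recode a stop codon as selenocysteine, were called in both directions. Of 20 tested 10 were higher (against 18.7% of all genes) and 5 lower (against 21.4%), with a median ratio of 0.45. Only the share called higher was well above that of all genes, and the share called lower was near it. Gpx4, which reduces lipid peroxides, had 292, 294, 268, 294 and 407 CPM in input and 652, 739, 609.8, 641 and 1033 CPM in polysome RNA, without overlap, at 1.23 (SE 0.061, FDR 1.59e-08). Selenoh, Gpx1 and Gpx3 had 1.29, 1.08 and 0.88. Selenot was the lowest at -1.23 (SE 0.071, FDR 4.16e-08), followed by the secreted selenium carrier Selenop at -0.87 (SE 0.064), Selenoi at -0.74, Txnrd1 at -0.62 and Selenon at -0.56, whose call was lost on leaving out any 1 of mice 1, 2, 3 and 8 (-0.65 to -0.39).

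Further lists held splicing factors, immediate early genes and clock genes. SR proteins, which choose splice sites, had a median of -0.56, with 7 of 12 lower (58.3%, against 21.4% of all genes) and 2 higher (16.7%, against 18.7%). Srsf1 had 37.4, 34.7, 37.96, 43.3 and 36.1 CPM in input and 16.8, 13, 15.2, 17.1 and 14.8 CPM in polysome RNA, without overlap, at -1.30 (SE 0.065, FDR 1.61e-08), and the higher ones were Srsf9 at 0.55 and Srsf11 at 0.67. Of 15 immediate early genes 2 were higher (13.3%) and 4 lower (26.7%), shares near those of all genes. Sgk1 had -1.21 (SE 0.080) and Fos -0.88 (SE 0.22), Jun and Junb had -0.40 and 0.14, and Jund and Ier2 were higher at 0.66 and 0.55. The level of Fos was uneven, at 0.797 to 13.6 CPM in input RNA, and its ratio was above 0 in mouse 2 (0.288). Of 17 clock genes 2 were higher (11.8%) and 5 lower (29.4%), likewise near the shares of all genes. Their median ratio was -0.08. Nr1d2 had -1.27 (SE 0.085), Clock -0.73 (SE 0.077), and Dbp and Nfil3, transcription factors of the clock output, 0.80 (SE 0.098) and 0.54 (SE 0.10). Without mouse 8 the calls of Ier2 (0.496) and Nfil3 (0.47) were lost, as was that of Nfil3 without mouse 2 (0.43).

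The clock genes also set mouse 9 apart in both RNAs. Dbp had 1.66, 2.13, 1.91, 5.49 and 24.2 CPM in the input RNA of mice 1, 2, 3, 8 and 9 and 2.56, 3.96, 3.57, 8.83 and 44.1 CPM in their polysome RNA. Arntl ran the other way, with 11.5, 10.5, 9.90, 9.27 and 1.52 CPM in input and 10.8, 10.6, 9.49, 8.89 and 1.21 CPM in polysome RNA. The ratio of Arntl was -0.079 (SE 0.10, FDR 0.512), and that of Npas2, which was at 0.15 CPM in the input RNA of mouse 9, was -0.053 (SE 0.17). What part the state of mouse 9 had in any ratio was not tested beyond leaving it out, after which 4754 of the 5320 calls were kept and 0 turned over.

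Shorter genes had higher ratios. Gene span, the distance from the first to the last annotated base on GRCm38.p6 with introns, was available for the 11766 protein-coding genes tested, and its Spearman correlation with the ratio across these genes was -0.36, a description in which genes share libraries and depth. These genes were divided by span into 10 equal parts. In the part with the shortest spans (374 to 4586 bases) the median ratio was 0.46 with 46.3% of genes higher and 9.27% lower, and in the part with the longest (115421 to 2390387 bases) it was -0.29 with 6.29% higher and 33.3% lower. The median fell from each part to the next. The median of the shortest part lay between 0.37 and 0.53 in the 5 mice, and that of the longest between -0.35 and -0.21. With genes of at least 5 CPM alone the end values were 0.57 and -0.23. Mean CPM had a correlation of 0.18 and the GC content of the first 50 bases 0.03 (9502 genes, 80.8% of those tested). In 10 equal parts by this GC content, the median ratio was -0.14 in part 1 (the lowest), 0.15 in part 5 and -0.05 in part 10. A rank correlation does not describe such a rise and fall.

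The order of the lists by span differed from their order by ratio. Cytosolic ribosomal protein genes had the shortest median span, 3164 bases, and a median ratio below 0, whereas respiratory chain genes with 7131 bases had 1.07. Mitochondrial ribosomal protein genes had a median span of 7749 bases, secreted plasma proteins 10898 and all protein-coding genes tested 23697. Within lists the correlation of span and ratio was -0.39 over 75 respiratory chain genes, -0.42 over 77 mitochondrial ribosomal protein genes, -0.57 over 20 selenoprotein genes, -0.31 over 53 secreted proteins and -0.20 over 79 cytosolic ribosomal protein genes. The length of the mRNA or protein, as distinct from that of the gene, was not analysed here.

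**Figure D5:**
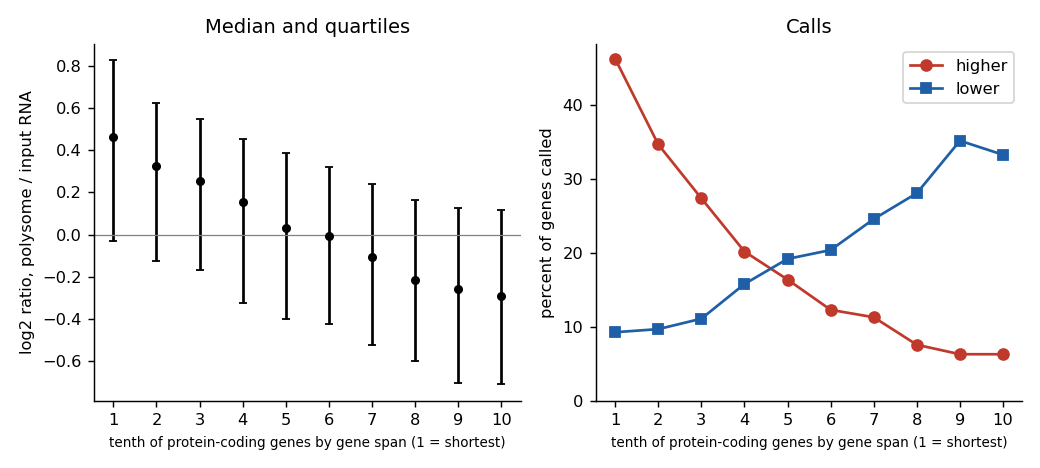
Left, median log2 ratio of polysome to input RNA (points) with the lower and upper quartile (bars) in 10 equal parts of 11766 protein-coding genes ordered by gene span (1 is the shortest), and right, the percentage of genes called higher or lower in each part. The median goes from 0.46 in the shortest part to -0.29 in the longest, and the percentage called higher from 46.3% to 6.29%.

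In whole liver the RNA of all cell types is mixed, and in a level (CPM) fewer cells of a type and less RNA per cell cannot be told apart. Both RNAs of a mouse came from 1 lysate, so a ratio compares RNA of the same cells, although each RNA was purified by its own steps. Of all genes tested 18.7% were higher and 21.4% lower, and in lists as short as these a count of 1 cannot be set apart from such shares. Of 9 stellate cell markers 7 were lower (77.8%) and 0 higher. Their median was -0.88, with a summed CPM of 268 to 360 in input and 148 to 223 in polysome RNA. The proteoglycan Dcn had 186, 199, 182, 175 and 225 CPM in input and 110.5, 108, 113, 129 and 155 CPM in polysome RNA, without overlap, at -0.66 (SE 0.071, FDR 6.01e-06), Lrat, which stores retinol as esters, had -1.28 (SE 0.14) and the collagen Col3a1 -1.48 (SE 0.086). Of 7 endothelial markers 1 was higher and 3 lower, with Lyve1 at -0.89 (SE 0.089) and Stab2 at 0.23 (SE 0.12). Kupffer cell markers, 7 in all, had 0 calls and a median of 0.12, with Clec4f at 0.26 (SE 0.086). The 4 globin genes tested as erythroid markers were higher, from 0.86 for Hbb-bs to 0.94 for Hbb-bt, with a summed CPM of 369 to 774 in input and 716 to 1320 in polysome RNA. Among 6 hepatocyte markers 1 (Ttr) was higher and 1 (Cps1) lower, and Hnf4a and Asgr1 had -0.086 and 0.37. Cholangiocyte markers had 1 of 3 tested lower, lymphocyte markers 1 higher and 2 lower of 5, and neutrophil markers 2 of 2 tested higher, all at a summed CPM of at most 36.3 in any library. Krt7, Krt19 and Ly6g did not pass the filter on low counts. The part of cell types in the other lists was not tested.

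The ratios were then compared with those of the 5 mice given the SNORA73 LNA, in a fit over all 20 libraries in which each mouse was again a block. Of the 5288 genes called in GFP LNA livers in this fit, 5220 (98.7%) had the same direction in SNORA73 LNA livers, 3835 (72.5%) were called there in that direction and 2 were called in the opposite one. These groups shared no animals. In SNORA73 LNA livers 62 of 75 respiratory chain subunits were higher with a median of 1.05, 54 of 77 mitochondrial ribosomal protein genes were higher with 0.73, and 12 of 13 mitochondrially encoded mRNAs were lower with -3.15. Cytosolic ribosomal proteins had 13 of 79 higher and 8 lower there, with a median of 0.13. Of all 13283 genes tested in GFP LNA livers, 2217 were higher and 2444 lower there. In the test of the difference, 0 of the 79 passed an FDR of 0.05. An unadjusted p under 0.05 in edgeR was reached by 19 of these 79, by 7 of the 17 other TOP mRNAs and by 1075 of the 13283 genes.

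The difference between the groups passed an FDR of 0.05 for 1 of 13795 genes, and 1108 had an unadjusted p under 0.05 in edgeR. This gene was Anp32b, which encodes a histone chaperone with an acidic tail. In GFP LNA livers it had 96.5, 99.2, 98.3, 118 and 133 CPM in input and 134, 100.1, 109, 93.1 and 137 CPM in polysome RNA, which overlapped, with a ratio of 0.070 (SE 0.093, FDR 0.527). In SNORA73 LNA livers the ratio was 1.36, and the difference was 1.28 (SE 0.17, FDR 0.0349). Its FDR went above 0.05 without mouse 2, 3, 8 or 9 of the GFP LNA group, or without mouse 10 or 11 of the other, and the difference stayed between 1.16 and 1.39 with any mouse left out. Malat1 had a ratio of -0.77 in SNORA73 LNA livers, and its difference did not pass (FDR 0.137). A gene that misses this threshold is not shown to be loaded alike in both groups.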

How the data were processed

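Liver input RNA and polysome RNA of 5 mice given the GFP LNA were analysed, 1 library of each per mouse. The deposited table holds estimated counts per Ensembl gene. The authors trimmed reads with fastp (Phred quality of at least 15), removed reads matching rRNA with bowtie, quantified polyadenylated, reverse-stranded 100 bp paired reads with kallisto 0.46.2 against Ensembl 102 and added up the transcripts of each gene with tximport. The kallisto strand option is not given in the sources used here. Because kallisto shares reads among similar transcripts, values of paralogs, pseudogenes and overlapping genes are uncertain, and 346 of the genes tested held values identical to those of another identifier. Each column was matched to a sample by its title, and 0 columns were left without one. Genes without a symbol held between 0.862% and 1.91% of the counts of these libraries.

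Estimated counts were rounded and scaled by TMM, and edgeR 4.0.16 (R 4.3.3) was run with its quasi-likelihood F-test on genes whose CPM exceeded 0.5 in 4 or more of 10 libraries, the study's filter, with mouse and RNA as terms. The standard error is the log2 ratio divided by the square root of F. The same mouse number marks libraries of the same animal, and deviations from the group means correlated with r from 0.283 to 0.581 within a mouse, each above every r with another mouse. No 2 libraries held identical values, and log2 CPM correlated with r from 0.9686 to 0.9873 among input and 0.9538 to 0.9765 among polysome libraries. p-values are Benjamini-Hochberg adjusted over all genes tested (FDR). Values per mouse are CPM on TMM-scaled totals. The difference between LNA groups was tested as an interaction over all 20 libraries. The paired edgeR fit of polysome against input RNA was tested on simulated data, and the interaction and the other tools were not.

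Genes named are the 10 highest and 10 lowest called ratios in the same direction in 5 mice at a mean of at least 5 CPM and again at 500 CPM, leaving out Gm-numbered, Rik and -ps symbols and genes with no symbol, and in each list the highest, the lowest, the first 3 written and, in lists of up to 13, any member, except a few that are not reported here. Members of counts of 5 or fewer and the genes whose start regions are printed were chosen after their values were seen. The comparison and the lists were chosen with earlier results of these data known. Gene symbols were matched for 51903 of 53028 identifiers. Positions, spans and start regions are those of RefSeq on GRCm38.p6, matched by symbol for 12515 of the genes tested. The alternatives were limma-voom (limma 3.58.1), DESeq2 1.42.0, other scalings, filters and thresholds, no block, and each mouse left out. The study left out 1 sample per group, which it does not name; all 5 mice were kept here.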

Additional observations from a re-analysis of the deposited data

Results flagged for a closer look

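In groups of 5 mice, 1 mouse lay apart from the other 4 (Dixon's test) for 16 of 194 sets of values examined. The sets were ratios of 188 genes, and library totals, mitochondrial shares and TMM factors of each RNA. All 16 were ratios of genes. Chance gives about 1 in 20 for a single set, but the genes share libraries, so the count of 16 was not tested against it. Of these 16, 7 were from mouse 8, 5 from mouse 9, 3 from mouse 1 and 1 from mouse 2. Mouse 8 was lowest for mt-Nd2 (-5.30, the others -3.90 to -3.36), mt-Nd4 (-4.53, the others -3.18 to -2.80), mt-Cytb (-3.00, the others -1.83 to -1.49) and mt-Co1 (-2.19, the others -1.38 to -1.06). It was also lowest for F9 (-1.36), Selenop (-1.10) and Manf (0.43). Mouse 8 had the highest share of mitochondrially encoded counts in input RNA (15.4%) and the lowest in polysome RNA (2.06%), and it was the shallowest in both RNAs, with 24098171 and 17752037 counts. Mouse 9 was highest for Ndufs1 (0.019), Mrpl52 (1.99, the others 1.35 to 1.48) and Rplp0 (-0.91, the others -1.35 to -1.23), and lowest for Atf5 (0.38) and Cpt1a (-0.65). Mouse 1 was highest for mt-Nd6 (0.70, the others 0.027 to 0.19) and Tfrc (-1.58) and lowest for Selenoh (0.69, the others 1.36 to 1.48), and mouse 2 was lowest for Mrpl1 (-0.32). Without mouse 8 the 12 lower mitochondrially encoded mRNAs remained lower. The cause of these values was not tested.

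The ratio of Anp32b differed between the LNA groups, by 1.28 in the test of the difference (SE 0.17, FDR 0.0349), being higher with the SNORA73 LNA. It passed the same threshold with DESeq2 (FDR 1.64e-10), limma-voom (FDR 0.0132) and library totals (FDR 0.00429), and not without the replicate block (FDR 0.715).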

How the results depend on the processing

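Counts of calls were steady over the alternatives of model, scaling and filter. Without the replicate block, which ignores that libraries of a mouse are paired, 2295 genes were higher and 2559 lower, against 2482 and 2838 with it. Leaving out each mouse in turn gave 2278 to 2537 higher and 2620 to 2813 lower genes. At FDR alone 4288 genes were higher, and with a ratio of at least 1 in size 528 were higher and 1159 lower. Between 4056 and 5257 of the 5320 calls were kept by the 13 alternatives, the lowest with a CPM above 1 in every library, which tested 10547 genes, and 0 turned over. Library totals without TMM gave 2847 higher and 2588 lower genes, so the share of higher genes among calls went from 46.7% to 52.4%. This scaling moved the median of all genes by 0.05.

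The count of genes whose ratio differed between LNA groups was 1 in edgeR, 55 with DESeq2 and 6 with library totals, and it ranged from 0 to 4 with each of 10 mice left out. Without mouse 2, 3, 8, 9, 10 or 11 it was 0, with 797 to 1256 genes at an unadjusted p under 0.05 in edgeR. Without the block Anp32b did not pass (FDR 0.715), and another gene did. The cause of these differences was not tested.

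Of 188 genes examined, 131 were called, and 0 of these changed direction. Of these, 22 lost their call under at least 1 alternative, most often Selenon (8 of 13), Eef1b2 and Pvt1 (5 each) and Rpl18 and Nfil3 (4 each). Without the replicate block the calls of Creld2, Dbp, Eef1b2, Fos, G6pc, Ier2, Igfbp1, Jund, Manf, Nfil3, Pvt1, Selenon and Tff3 were lost. Ratios near 0 changed sign for Sdhd (0.023 with library totals), Mrpl1 (-0.002 with a CPM above 1 in every library), Oaz2 (-0.016 with no filter, -0.024 with a CPM above 1, and -0.03 to 0.06 with each mouse left out, below 0 without mouse 2 or 3), Smox (-0.039 without mouse 9, up to 0.131 without others), Npas2 (0.015 with library totals, and -0.138 to 0.055 with each mouse left out, above 0 without mouse 1 or 3) and Anp32b (-0.033 without mouse 1, up to 0.169 without others). The medians of the hepatocyte, lymphocyte and endoplasmic reticulum lists changed sign under some alternatives. Protein length was not run, because no protein table was used here, and gene span stood in its place. At 17752037 counts, the shallowest library, 0.5 CPM is about 9 counts, so ratios of genes near the filter are coarse, and 5 mice limit all of them.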

Other observations

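Genes that share the start of their symbol were grouped after the values were seen, for 101 starts with at least 12 genes tested, and are given as a description. The highest medians were those of Ndufa (1.34, 14 of 14 higher), Cox (1.13, 16 of 21 higher), Mrpl (0.83), Mrps (0.82) and Timm (0.77, 10 of 14 higher). The lowest were Vmn (-0.78, 12 of 25 lower and 0 higher), Pik (-0.68), Olfr (-0.64, 17 of 39 lower and 0 higher), Ugt (-0.61, 10 of 17 lower) and Pde (-0.61). Vmn and Olfr genes encode vomeronasal and odorant receptors of sensory neurons, and their summed CPM in input RNA was at most 34.8 and 196. Zinc finger genes named Zfp were the largest group toward the low end, with 139 of 315 lower, 23 higher and a median of -0.44. Klhl genes, many of which encode adaptors of ubiquitin ligases, had 10 of 23 lower and a median of -0.47.

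A few genes were at 0 in all 5 libraries of one RNA, and no fold change is given for them. Gm15387, a pseudogene at GRCm38.p6 chr15:74093154-74094473, was at 0 in input RNA and at 51.6 to 74.3 CPM in polysome RNA. Gm10108 was at 0 in input RNA and at 30.6 to 58.7 CPM in polysome RNA, and Gm9830 at 3.06 to 4.26 CPM. Hist2h3c1 was at 0 in polysome RNA and at 1.6 to 4.7 CPM in input RNA. Reads of pseudogenes and histone copies can be assigned to near-identical genes, and the cause of these values was not tested.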
